A study of Mus musculus with 8 samples.

Results

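The 6 genes described here, *Stat2*, *Stat3*, *Stat4*, *Stat5a*, *Stat5b* and *Stat6*, encode signal transducers and activators of transcription (STATs). They were chosen by gene name and not by any measured value, and they are 6 of the 54232 gene identifiers in the count table. Earlier results of these data were known when these genes and the gene lists below were chosen. All 6 were found by symbol, and all 6 were among the 14062 genes tested, whose normalised counts averaged 10 or more. RNA-seq read counts were taken from natural killer (NK) cells and CD8+ T cells that were FACS-purified from the spleens of *Tyk2*-/- mice under homeostatic conditions, with 3 libraries per cell type. The mice were C57BL/6 per the labels and C57BL/6N per the methods of the study, 8 to 12 weeks old, and per the labels the material of 3 littermates was pooled for a sample. By their labels, all 6 libraries thus share the loss of TYK2, a Janus kinase, in every cell of the animal, and both cell types are bulk populations. The table also has 3 columns named for *WT* CD8+ T cells, but 2 such samples were at hand, and nothing in the names of the columns ties either sample to one of them. These columns were not used, so what follows compares NK with CD8+ T cells of the same labelled genotype and says nothing on what the loss of TYK2 did to either.

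STATs are latent cytoplasmic proteins that carry signals from cytokine receptors to the nucleus. A cytokine brings its receptor chains together, the Janus kinases bound to these chains phosphorylate each other and the receptor, and STATs dock on the new phosphotyrosines, are themselves phosphorylated, pair up and bind DNA. Most STAT dimers recognise GAS elements, a palindrome of TTC and GAA with a short spacer, whereas the interferon complex of STAT2 with IRF9 binds the ISRE, a repeat of GAAA. In lymphocytes, STAT4 is best known for the response to IL-12 and the type I programme, STAT5A and STAT5B for IL-2, IL-7 and IL-15, STAT6 for IL-4 and IL-13, STAT3 for IL-6, IL-10 and IL-21, and STAT2 for type I interferon. TYK2 is bound to the receptors for type I interferon, IL-12, IL-23 and the IL-10 family.

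Between 20957384 and 26144478 reads were counted per CD8+ T cell library and between 32848432 and 38573550 per NK cell library, spread over 12893 to 14042 and 17224 to 17373 genes with at least 1 read. A normalised count is the read count divided by the library's effective size (edgeR's TMM) and scaled to the mean effective size of the 6 libraries. The labelled cell types carried their defining transcripts. The summed normalised count of 8 NK cell markers was 4975 to 8037 in CD8+ T cells versus 1504565 to 1888819 in NK cells, and that of 8 T cell markers was 302006 to 330277 and 11464 to 18178. *Ncr1* was at 0 in all 3 CD8+ T cell libraries and *Cd8b1* at 0 in all 3 NK cell libraries. The 4 B cell markers summed to 6659, 4754 and 941 in CD8+ T cell libraries 1, 2 and 3 and to 7.19 to 1521 in NK cells. Markers of the remaining splenic cells summed to 3.67 to 142 (CD8+ T) and 559 to 1323 (NK) for 5 myeloid genes, 2.90 to 45.3 and 21.6 to 83.8 for 4 erythroid genes, and 0 to 7.36 and 10.8 to 36.0 for 2 CD4+ T cell genes, and their part in the results was not tested. Most of the myeloid sum in NK cells was *Cd68* (859, 530 and 211) and *Itgam* (464, 307 and 309). There *Lyz2* was at 0, 0 and 38.7 and *Csf1r* at 0, 18.4 and 0, and *Adgre1* had no read in any library. The spread between libraries was wide, with a common biological coefficient of variation of 1.40 in CD8+ T cells versus 0.847 in NK cells. The running numbers in the sample titles do not overlap between the cell types, and if they mark a preparation, it cannot be told apart from the cell type.

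Of the gene that the knockout targets, *Tyk2* (ENSMUSG00000032175, chr9:21104068-21131243 of GRCm38, minus strand), the table held 105, 919 and 554 raw reads among CD8+ T cell libraries versus 3864, 4245 and 3207 among those of NK cells. Reads over the gene as a whole do not show whether the deleted part is missing, and no *WT* library was set beside them, so these counts do not check the genotype. They were higher in every NK than in every CD8+ T cell library, with a log2 fold change of 2.51 (standard error 0.75) that had an adjusted p = 0.075 with edgeR's quasi-likelihood test.

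By position, the 6 genes fall on 3 chromosomes. In GRCm38, *Stat4* lies at chr1:51987148-52107189 on the plus strand. *Stat6* (chr10:127642986-127660957, plus strand) and *Stat2* (chr10:128270559-128292849, plus strand) share chromosome 10 and are 609601 bases apart. The other 3 stand side by side on chromosome 11, as *Stat5b* (chr11:100780731-100850724, minus strand), *Stat5a* (chr11:100859351-100885169, plus strand) and *Stat3* (chr11:100885098-100939540, minus strand). *Stat5b* and *Stat5a* are divided by 8626 bases and point away from each other. *Stat5a* and *Stat3* meet tail to tail and share 72 exon bases on opposite strands. Since no source used here states that the counting used strand, reads from those 72 bases cannot be told apart between them.

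*Stat5a* and *Stat5b* arose from a gene duplication, and their coding sequences hold a run of 324 identical bases, which bears on how well 50-base reads separate them. Within that run, 1 whole exon of 152 bases is the same in both genes, exon 8 of *Stat5a* (chr11:100874339-100874490) and exon 7 of *Stat5b* (chr11:100798234-100798385). It is shown as it reads on the coding strand of either gene, with no part in capitals because no base differs.

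Exon shared by Stat5a and Stat5b: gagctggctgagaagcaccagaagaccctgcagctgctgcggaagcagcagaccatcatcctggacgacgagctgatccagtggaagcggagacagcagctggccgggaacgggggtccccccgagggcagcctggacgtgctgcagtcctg

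Of the 50-base sequences in the exons of each gene, 15.9% of those of *Stat5a* and 11.1% of those of *Stat5b* also occur in another annotated gene, for *Stat5b* only in *Stat5a* and for *Stat5a* in *Stat5b* or the overlapping *Stat3*. The authors counted uniquely aligned reads, so reads that match both *Stat5* genes are missing from either count in every library. For *Stat4* the share is 27.1%, all of it with *Gm28177*, a gene model on the same strand (chr1:52077261-52156087) that overlaps it by 1033 exon bases. *Gm28177* itself had 0, 4 and 0 reads in CD8+ T cells versus 1, 1 and 43 in NK cells. The share was 0.364% for *Stat3*, all with *Stat5a*, and 0% for *Stat2* and *Stat6*.

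Of the 6 genes, *Stat4* stood higher in NK cells and the other 5 had higher means in CD8+ T cells, but with edgeR's quasi-likelihood test none passed an adjusted p of 0.05. That rule called 11.4% of all genes tested, 6.24% as higher in NK cells and 5.14% as higher in CD8+ T cells. At an unadjusted p under 0.05, *Stat4* and *Stat6* passed, 2 of 6 genes beside 30.7% of all genes. DESeq2's Wald test called *Stat6* alone, 1 of 6 beside 29.6% of its genes, and so did edgeR scaled by total counts only, 1 of 6 beside 13.3%. For 3 genes every library of one cell type lay above every library of the other, *Stat4* (higher in NK cells, 1 of 6 beside 25.5% of all genes) and *Stat5b* and *Stat6* (higher in CD8+ T cells, 2 of 6 beside 16.1%), in either direction 3 of 6 beside 41.6%. The median log2 fold change of all genes was 0.10 with TMM and -0.27 with total counts, a shift that moves every fold change below by a like amount. With TMM, 877 of the called genes favoured NK and 723 CD8+ T cells, against 751 and 1112 with total counts. In bulk RNA, fewer cells that express a gene and less RNA per cell cannot be told apart, which holds for each level below.

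**Figure D1:**
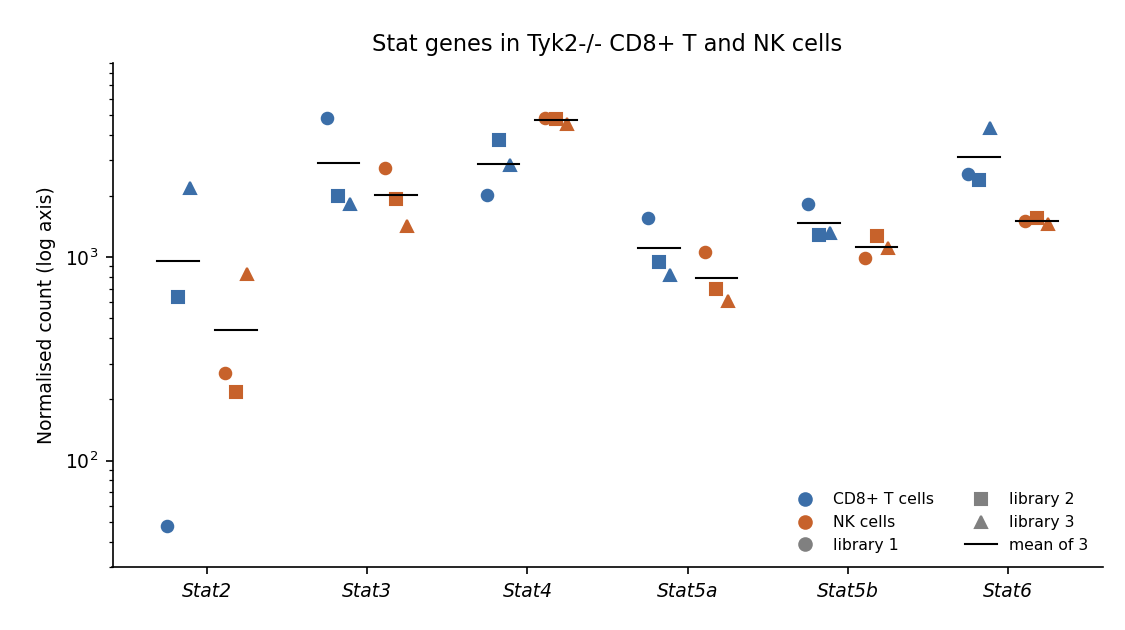
Normalised counts (log axis) of the 6 *Stat* genes in the 3 CD8+ T cell and 3 NK cell libraries, each point 1 library with its number given by the shape and each line the mean of 3. *Stat4* and *Stat6* form tight clusters in NK cells, whereas *Stat2* runs from 47.7 to 2181 in CD8+ T cells.

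*Stat4*, the transducer of IL-12 signals, had the highest level per length of the 6 in NK cells. Its normalised count was 2018, 3754 and 2843 in CD8+ T cell libraries 1, 2 and 3 versus 4840, 4800 and 4524 in NK cells. The lowest NK cell library was above the highest CD8+ T cell library, and the means were 2872 ± 869 (SD, n = 3) and 4721 ± 172 (SD, n = 3), a ratio of 1.64. On the log2 scale, NK cells over CD8+ T cells came to 0.72 (standard error 0.28, 95% interval 0.04 to 1.39), with an adjusted p = 0.145 in edgeR's quasi-likelihood test and 0.062 in DESeq2. A two-sided exact permutation test of the normalised counts gave p = 0.1, the smallest that 3 libraries against 3 allow, and 0.2 after adjustment over the 6 genes. With total counts in place of TMM the log2 fold change was 0.37.

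The NK cell libraries differed little in *Stat4*. The highest was 1.07 times the lowest, and the SD of the log2 normalised counts was 0.05, where the median gene had 0.46 and 1.87% of 12234 genes had a smaller SD. In CD8+ T cells the highest library was 1.86 times the lowest and the SD was 0.45, which exceeded that of 24.2% of 9179 genes, with a median of 0.83. The genes compared were at all levels tested. Neither these shares nor those given below for *Stat6* and *Stat2* were matched for level.

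RefSeq gives *Stat4* 2 start sites in GRCm38.p6. The window from 250 bases upstream to 50 bases downstream of the second (chr1:52007990-52008289, plus strand) holds the letters of an ISRE, here a pair of GAAA with 2 bases between them on either strand. They are in capitals because the ISRE is the element bound by STAT2 with IRF9. The match starts 97 bases before the start site. The same letters were found in 3.44% of the 32851 promoter windows of that length.

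Stat4, second promoter: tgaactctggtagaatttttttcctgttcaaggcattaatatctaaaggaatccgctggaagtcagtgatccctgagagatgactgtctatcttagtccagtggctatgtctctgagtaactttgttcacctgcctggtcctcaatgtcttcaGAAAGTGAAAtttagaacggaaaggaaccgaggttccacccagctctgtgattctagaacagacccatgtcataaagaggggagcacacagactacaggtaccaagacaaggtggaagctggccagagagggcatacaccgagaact

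The match is one of letters and was not tested as a site. The window of the other *Stat4* start site held no match to the ISRE or to the GAS letters, TTCNNNGAA (8.30% of all windows) and the same with a spacer of 4 bases (6.95%), also searched on both strands.

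*Stat6*, which transmits IL-4 and IL-13, had the opposite pattern. Its normalised count was 2567, 2383 and 4337 in CD8+ T cells, with library 3 the highest, and 1501, 1551 and 1453 in NK cells. The groups did not overlap, and the means of 3096 ± 1079 (SD, n = 3) and 1502 ± 49.3 (SD, n = 3) differed 2.06-fold. The log2 fold change was -1.04 (standard error 0.33, 95% interval -1.82 to -0.26), with an adjusted p = 0.084 in edgeR's quasi-likelihood test. DESeq2 gave -0.98 with an adjusted p = 0.031 and edgeR with total counts only -1.40 with an adjusted p = 0.041, so that the call of *Stat6* depended on the tool and the scaling. Without CD8+ T cell library 3 the log2 fold change was -0.72, and with any 1 of the 6 libraries removed its adjusted p lay between 0.066 and 0.229.

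In NK cells *Stat6* was as steady as *Stat4*. The highest library was 1.07 times the lowest, and 1.40% of genes had a smaller SD of the log2 values than its 0.05. *Stat6* shares 40 exon bases with *Nab2* on the other strand, which had 32, 5 and 427 reads in CD8+ T cells versus 522, 493 and 490 in NK cells, fewer than *Stat6* in each library.

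**Figure D2:**
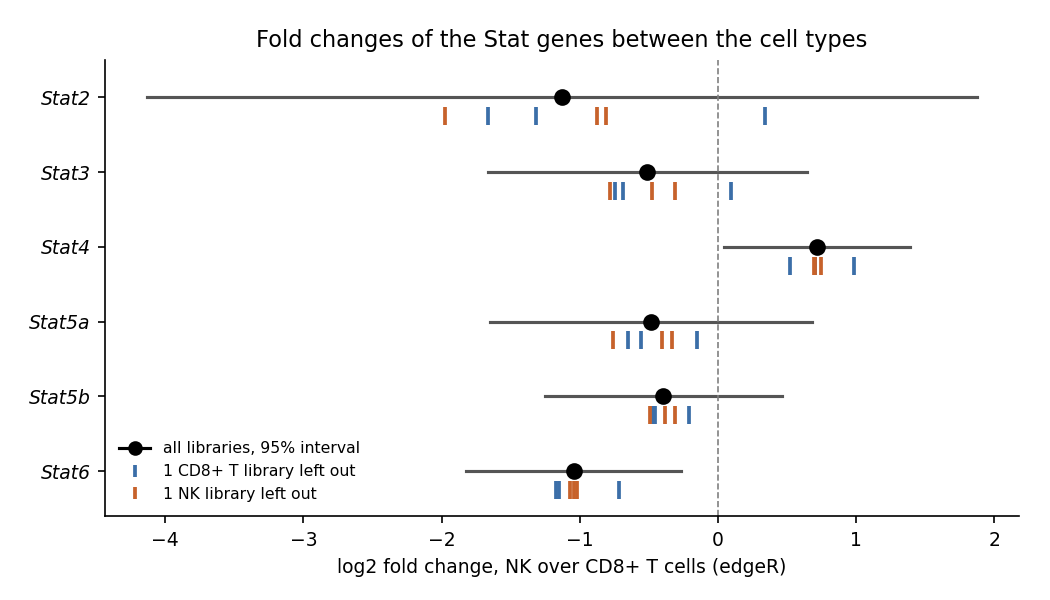
Log2 ratios, NK cells over CD8+ T cells (edgeR) with their 95% intervals, and below each the values from the 6 fits that left out 1 library. The intervals of *Stat4* and *Stat6* do not reach 0, and *Stat2* and *Stat3* cross to above 0 when 1 CD8+ T cell library is left out.

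*Stat2*, the interferon transducer that works with IRF9, had the lowest mean level per length of the 6 in both cell types and the widest spread between libraries. In CD8+ T cell library 3 it stood above *Stat3*, *Stat5a* and *Stat5b* per length, and in NK cell library 3 above *Stat5a*. Its normalised count was 47.7, 634 and 2181 in CD8+ T cell libraries 1, 2 and 3, from 39, 517 and 2254 raw reads, and 269, 217 and 823 in NK cells. The highest CD8+ T cell library was 45.7 times the lowest, and the NK cell values lie inside that range. The SD of the log2 values was 2.81 in CD8+ T cells, larger than for 86.9% of genes, and 1.03 in NK cells, larger than for 79.4%. The log2 fold change of -1.13 (standard error 1.25, 95% interval -4.13 to 1.87) had an adjusted p = 0.59 in edgeR's quasi-likelihood test, and without CD8+ T cell library 3 it was 0.34. A difference between the cell types was therefore not detectable for *Stat2*, and the interval allows large ones either way.

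The *Stat2* promoter is shown because the gene is itself a known interferon-stimulated gene. The window (RefSeq, GRCm38.p6, chr10:128270248-128270547, plus strand) holds both kinds of letters within its first bases, an ISRE on the reverse strand which starts 222 bases before the start site and, with 2 bases between, the GAS letters with the 4-base spacer, which start 210 bases before it. Both are in capitals.

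Stat2 promoter: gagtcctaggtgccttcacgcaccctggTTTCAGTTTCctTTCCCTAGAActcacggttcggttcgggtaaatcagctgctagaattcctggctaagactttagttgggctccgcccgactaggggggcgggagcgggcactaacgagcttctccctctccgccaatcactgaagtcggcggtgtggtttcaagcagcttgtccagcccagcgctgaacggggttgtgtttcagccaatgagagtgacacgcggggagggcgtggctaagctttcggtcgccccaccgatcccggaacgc

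No match to these 3 patterns was found in the 6 windows of *Stat3*, *Stat5a*, *Stat5b* and *Stat6*, which says only that these letters are not there. For the 6 genes, 9 windows were given.

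*Stat3*, the transducer of IL-6, IL-10 and IL-21, had normalised counts of 4856, 1998 and 1823 in CD8+ T cells versus 2729, 1942 and 1422 in NK cells. The groups overlapped, and CD8+ T cell library 1 stood above the other 5. The means were 2892 ± 1703 (SD, n = 3) and 2031 ± 658 (SD, n = 3), with a log2 fold change of -0.51 (standard error 0.48, 95% interval -1.66 to 0.64, adjusted p = 0.52 with edgeR's quasi-likelihood test). The sign rested on that 1 library, since without it the log2 fold change was 0.10. It is also the library with the highest sum of B cell markers, 6659 beside 4754 and 941. Of these sums *Cd79b* made up 5739, 4725 and 941, and *Cd79a* and *Ms4a1* were also highest in library 1. The part of these transcripts in the *Stat3* level was not tested.

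*Stat5a* and *Stat5b*, the transducers of IL-2, IL-7 and IL-15, were both at higher means in CD8+ T cells, by less than the spread allows to tell. *Stat5a* had normalised counts of 1550, 943 and 819 in CD8+ T cells versus 1061, 695 and 611 in NK cells, and these overlapped. Its log2 fold change was -0.48 (standard error 0.49, 95% interval -1.65 to 0.68, adjusted p = 0.55 with edgeR's quasi-likelihood test) and -0.15 without CD8+ T cell library 1. *Stat5b* had 1833, 1290 and 1317 versus 991, 1276 and 1113, and only the distance between 1290 and 1276 kept its groups from overlapping. Its log2 fold change was -0.39 (standard error 0.36, 95% interval -1.25 to 0.46, adjusted p = 0.50 with edgeR's quasi-likelihood test). The ratio of *Stat5a* to *Stat5b* reads was 0.846, 0.731 and 0.622 in CD8+ T cells versus 1.07, 0.545 and 0.549 in NK cells, so neither duplicate was favoured in a way that set the cell types apart.

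To compare levels between genes, the normalised count was divided by the length of the union of each gene's exons in kb. In NK cells the order of the mean levels per kb was *Stat4* (1500 ± 54.7, SD, n = 3), *Stat6* (398 ± 13.05), *Stat3* (326 ± 106), *Stat5b* (203 ± 25.8), *Stat5a* (199 ± 60.2) and *Stat2* (99.2 ± 76.4). Of the neighbours in that order, the ranges of *Stat4* and *Stat6* did not overlap, and each of the others overlapped with the next. Compared within a library, *Stat3* was above *Stat5b* in all 3 NK cell libraries. In CD8+ T cells the order was *Stat4* (912 ± 276), *Stat6* (820 ± 286), *Stat3* (464 ± 273), *Stat5a* (278 ± 98.6), *Stat5b* (267 ± 55.2) and *Stat2* (217 ± 251), and every pair of neighbours overlapped. *Stat4* had the highest mean in both cell types, but with these lengths it was above *Stat6* in only 1 of the 3 CD8+ T cell libraries. Lengths that left out shared 50-base sequences were a choice made after seeing the data. They gave CD8+ T cell means of 1251 for *Stat4* and 820 for *Stat6*. Single libraries were not compared with them. *Stat3* was above *Stat5a* in all 3 CD8+ T cell libraries.

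The balance among the 6 can be put as each gene's share of the summed level per kb, a quantity that does not depend on the scaling between libraries. *Stat4* took 22.6, 43.2 and 27.5% of the sum in CD8+ T cell libraries 1, 2 and 3 and 53.4, 56.4 and 55.4% in the NK cell libraries. *Stat6* took 24.0, 22.9 and 35.0% in CD8+ T cells versus 13.8, 15.2 and 14.8% in NK cells. Both shifts separated the groups, by 24.0 and -12.7 percentage points, each with p = 0.1 in a two-sided exact permutation test, the smallest 3 against 3 allow, and 0.3 after adjustment over the 6 shares. The shares of the other 4 genes overlapped between the cell types. The sum itself was 2959 ± 285 (SD, n = 3) in CD8+ T cells and 2725 ± 146 (SD, n = 3) in NK cells, with p = 0.3 in the exact permutation test.

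**Figure D3:**
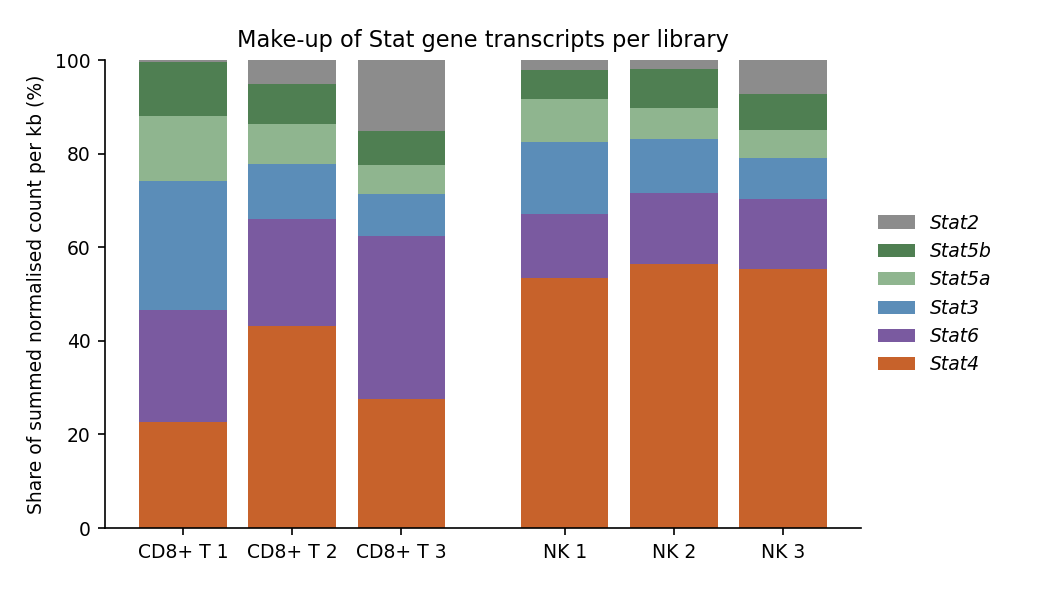
Share of each *Stat* gene in the summed normalised count per kb of the 6 genes, 1 bar per library. *Stat4* makes up 53.4 to 56.4% in the NK cell libraries and 22.6 to 43.2% in the CD8+ T cell libraries, and *Stat2* varies from 0.383 to 15.1% among the latter.

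The ratio of raw reads of a pair of genes in the same library is also free of scaling. Of the 15 pairs among the 6 genes, 3 had ratios that did not overlap between the cell types, and all 3 involved *Stat4*. These 3 share the *Stat4* reads and are not separate observations. The share of all gene pairs that separate was not computed, and of single genes 41.6% did not overlap. The ratio of *Stat4* to *Stat6* was 0.786, 1.58 and 0.656 in CD8+ T cells versus 3.22, 3.09 and 3.11 in NK cells. That of *Stat4* to *Stat5a* was 1.30, 3.98 and 3.47 in CD8+ T cells versus 4.56, 6.90 and 7.40 in NK cells, and that of *Stat4* to *Stat5b* was 1.10, 2.91 and 2.16 against 4.89, 3.76 and 4.06. Each had p = 0.1 in a two-sided exact permutation test of the log2 ratios and 0.5 after adjustment over the 15 pairs. None of the pairs without *Stat4* separated the cell types.

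**Figure D4:**
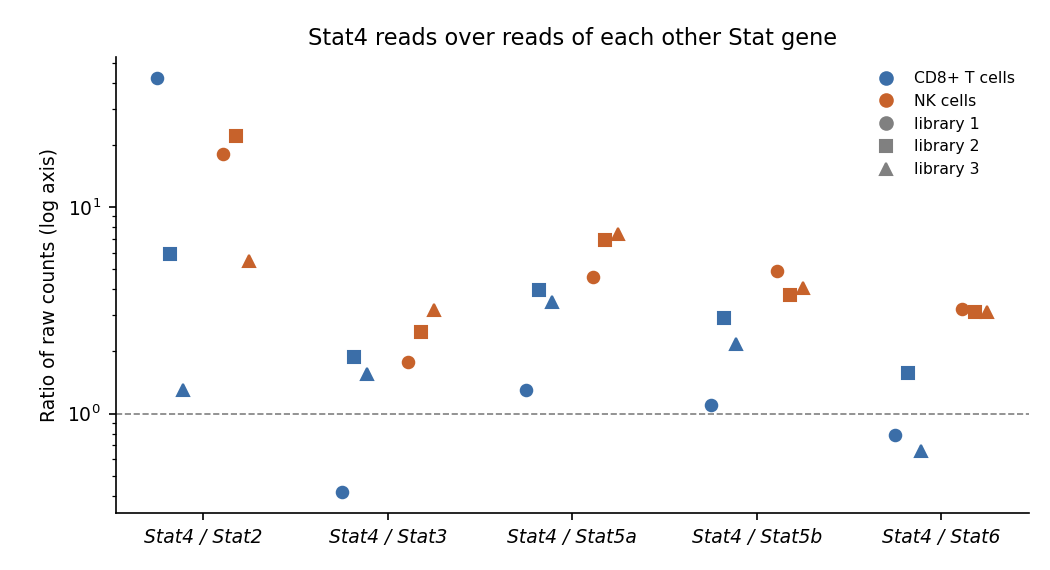
Raw reads of *Stat4* divided by those of each other *Stat* gene in the same library (log axis), with the dashed line at equal reads. In NK cells the ratio to *Stat6* lies between 3.09 and 3.22, and for *Stat5a*, *Stat5b* and *Stat6* all 3 NK cell libraries are above all 3 CD8+ T cell libraries.

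The receptor chains that feed each STAT were examined next, 18 genes of which 15 were tested. With edgeR's quasi-likelihood test 7 were called, 3 of them in favour of NK and 4 of CD8+ T cells, beside 11.4% of all genes (6.24% and 5.14%). DESeq2 called 10, beside 29.6% of its genes, and the median log2 fold change of the 15 was 0.31 beside 0.10 for all genes. For STAT4, *Il12rb2*, the signalling chain of the IL-12 receptor, was at 0 in every CD8+ T cell library and at 1451, 838 and 1940 in NK cells. Its NK cell mean was 412-fold above 3 reads per library, and its adjusted p was 0.0057 with edgeR's quasi-likelihood test. *Il12rb1*, the chain that binds TYK2, was at 0, 23.3 and 14.5 versus 1339, 472 and 535, which did not overlap but missed the threshold with edgeR (adjusted p = 0.064) and passed it with DESeq2. *Il23r* had no read in any library.

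Of the 6 receptor chains around STAT3, edgeR called 3, all higher in CD8+ T cells, whereas DESeq2 called these and also *Il10ra*, as higher in NK cells. *Il6ra*, the IL-6 binding chain, was at 4234, 3460 and 2592 in CD8+ T cells but at 0 in every NK cell library. Its CD8+ T cell mean was 1265-fold above 3 reads per library, and its adjusted p was 0.0012 with edgeR's quasi-likelihood test. *Il6st*, the shared signalling chain of the IL-6 family, was at 5374, 2395 and 5125 versus 30.2, 16.8 and 47.6 (-7.09 on the log2 scale, standard error 0.64, adjusted p = 0.0016). *Il21r* was at 9436, 7119 and 10648 versus 1837, 1973 and 1397 (-2.38, standard error 0.26, adjusted p = 0.0031). *Il10ra*, which binds IL-10, was at 355, 3.68 and 0.968 versus 6211, 5272 and 4273, apart between the groups but uneven in CD8+ T cells (5.46, standard error 1.93, adjusted p = 0.11 with edgeR and 0.014 with DESeq2), and *Il10rb* overlapped.

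For STAT5, 2 of the 4 tested chains were called, in opposite directions. *Il2rb*, the shared chain for IL-2 and IL-15, was at 1573, 1507 and 813 in CD8+ T cells versus 69171, 59340 and 66007 in NK cells, a log2 fold change of 5.64 (standard error 0.32, adjusted p = 0.00035, edgeR's quasi-likelihood test). *Il7r* was at 10599, 11386 and 9817 versus 2983, 4047 and 2704, a fold change of -1.71 on the log2 scale (standard error 0.22, adjusted p = 0.0061). *Il2rg*, the common gamma chain, did not overlap either (-0.68, standard error 0.19) but had an adjusted p = 0.064 with edgeR and 0.035 with DESeq2, and *Il15ra* overlapped.

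Around STAT2, *Ifnar2*, a chain of the type I interferon receptor, was at 1910, 2193 and 1834 in CD8+ T cells versus 6186, 7228 and 8564 in NK cells (1.89 on the log2 scale, standard error 0.23, adjusted p = 0.0045, edgeR's quasi-likelihood test). *Ifnar1*, the chain that binds TYK2, overlapped (0.68, standard error 0.67, adjusted p = 0.54). For STAT6, *Il4ra* was at 690, 1778 and 10065 in CD8+ T cells versus 1194, 823 and 772 in NK cells, with the high values of *Il4ra* and *Stat6* in the same library 3, and was not called (-2.17, standard error 0.95, adjusted p = 0.18), and *Il13ra1* had no read.

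**Figure D5:**
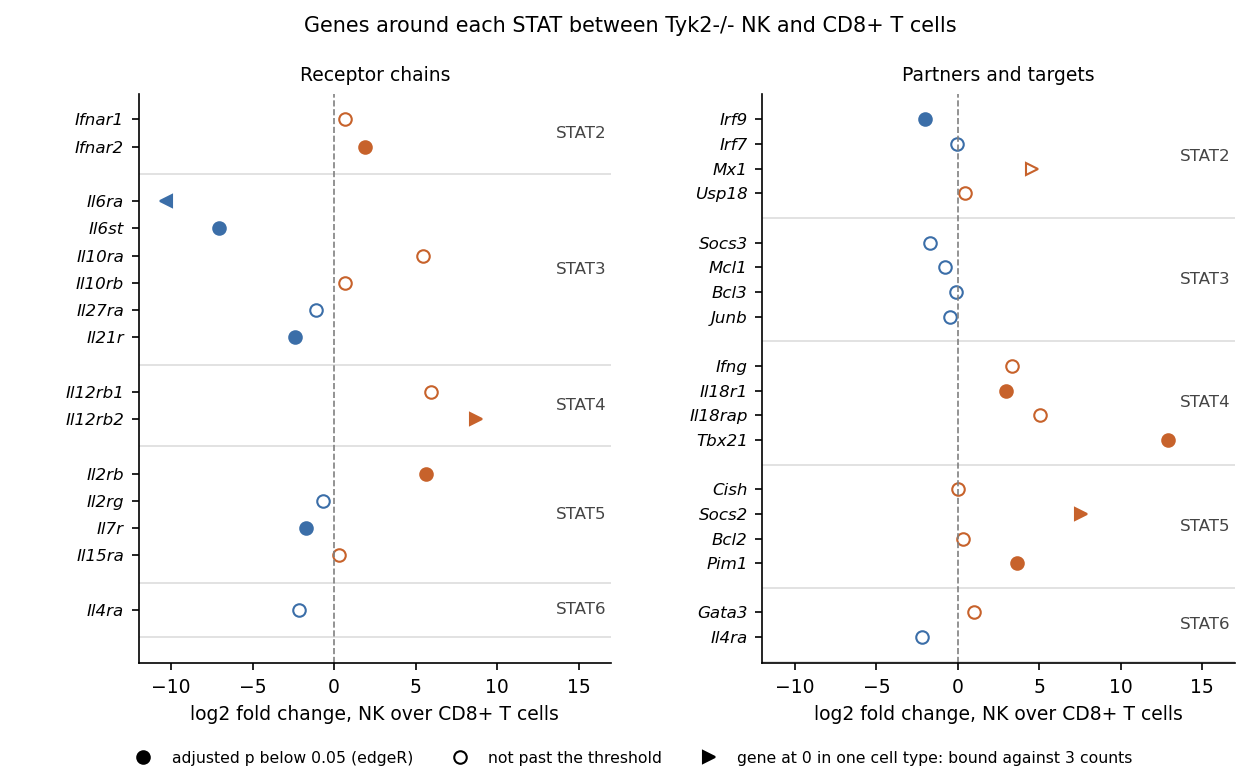
Log2 ratios, NK cells over CD8+ T cells, for the tested receptor chains and the tested partners and targets of each STAT, filled where the adjusted p from edgeR was below 0.05 and drawn as triangles, at the bound against 3 reads per library, for genes at 0 in 1 cell type. The called genes around STAT4 lie to the right (higher in NK cells) and the called receptors of STAT3 to the left.

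Partners and known targets made a list of 22 genes, of which 18 were tested. By edgeR 5 were called, 4 higher in NK cells and 1 in CD8+ T cells, beside 11.4% of all genes (6.24% and 5.14%). DESeq2 called 7, beside 29.6% of its genes. The median log2 fold change of the 18 was 0.39 beside 0.10 for all genes. *Tbx21*, the transcription factor T-BET of the type I programme, was at 0, 13.5 and 0 in CD8+ T cells versus 39116, 32463 and 30014 in NK cells (12.91 on the log2 scale, standard error 1.27, adjusted p = 0.0022, edgeR's quasi-likelihood test), with all its CD8+ T cell reads in library 2. *Il18r1* was at 681, 411 and 852 versus 4725, 4957 and 5393 (2.95, standard error 0.35, adjusted p = 0.0044). The other 2 genes listed for STAT4, *Il18rap* and *Ifng*, were also higher in every NK cell library, which held for 25.5% of all genes. Their log2 fold changes were 5.05 (standard error 2.03) and 3.33 (standard error 2.31). The adjusted p-values were 0.15 and 0.37 with edgeR's quasi-likelihood test and 0.036 and 0.41 with DESeq2. Among those of STAT5, *Socs2*, a feedback inhibitor, was at 0 in CD8+ T cells but at 520, 821 and 616 in NK cells. Its NK cell mean was 191-fold above 3 reads per library, and its adjusted p was 0.012 with edgeR's quasi-likelihood test. The kinase gene *Pim1* was at 44, 74.8 and 31.9 versus 737, 579 and 589 (3.66, standard error 0.82, adjusted p = 0.037 with the same test). *Bcl2* and *Cish* overlapped between the groups.

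*Irf9*, the DNA-binding partner of STAT2, was the called gene on the other side, at 4520, 1925 and 3119 in CD8+ T cells versus 1132, 525 and 743 in NK cells (-1.99 on the log2 scale, standard error 0.47, adjusted p = 0.043, edgeR's quasi-likelihood test). It kept its call in only 1 of the 6 fits that left out 1 library, with values of -2.33 to -1.64. The interferon-stimulated genes *Irf7* and *Usp18* overlapped, at log2 fold changes of -0.03 and 0.45. The remaining tested gene of that list, *Mx1*, another interferon-stimulated gene, is named after its values were seen. It had 0 reads in every CD8+ T cell library versus 12.6, 19.3 and 210 normalised counts in NK cells. Its NK cell mean was 23.6-fold above 3 reads per library, but that mean rests mostly on NK cell library 3. *Mx1* was not called by edgeR's quasi-likelihood test (adjusted p = 0.093), and DESeq2 gave it no adjusted p. Of the 4 genes listed for STAT3, edgeR and DESeq2 called 0, and 1, *Mcl1*, had an unadjusted edgeR p under 0.05. Of the 2 listed for STAT6, edgeR called 0, with 1, *Gata3*, at an unadjusted p under 0.05, and DESeq2 called *Gata3*. Of all genes, 30.7% had an unadjusted edgeR p under 0.05, and DESeq2 called 29.6% of its genes. *Mcl1* had a fold change of -0.77 on the log2 scale (standard error 0.30, adjusted p = 0.14), *Junb* of -0.45 (standard error 0.48, adjusted p = 0.57) and *Gata3* of 1.01 (standard error 0.38, adjusted p = 0.13, with DESeq2 0.047).

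Of the JAK-STAT components compiled by the study, 53 besides the STATs were looked up and 46 tested. With edgeR's quasi-likelihood test 11 were called, 7 of them in favour of NK and 4 of CD8+ T cells, beside 11.4% of all genes (6.24% and 5.14%), and the median log2 fold change was 0.46 beside 0.10 for all genes. The receptors among them and *Irf9* and *Socs2* are given above. *Jak1*, the kinase shared by most of these receptors, was at 23766, 17251 and 14859 in CD8+ T cells versus 52031, 46490 and 47468 in NK cells (1.39, standard error 0.20, adjusted p = 0.010). *Irf8* had 1, 0 and 0 raw reads in CD8+ T cells versus 21362, 20903 and 22138 in NK cells (adjusted p = 0.00017). The phosphatase genes *Ptpn1* (1.15, standard error 0.19, adjusted p = 0.014) and *Ptprc* (1.18, standard error 0.15, adjusted p = 0.0053) were higher in NK cells, and *Pias1*, of the protein inhibitors of activated STATs, was lower there (-1.19, standard error 0.21, adjusted p = 0.018). Of the 17 called genes on the receptor, target and JAK-STAT lists, DESeq2 called all 17, and 10 kept their call in each of the 6 fits without 1 library, whereas *Irf9* lost it in 5 of them. *Socs2*, *Pias1* and *Pim1* lost it without any 1 NK cell library, *Il12rb2* and *Jak1* without NK cell library 1 or 3, and *Ptpn1* without library 1 or 2, with adjusted p-values of at most 0.154. The same shares among all 1600 genes called by edgeR were not computed, so these counts do not set the lists apart from other called genes.

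Finally, the genes of the JAK-STAT list that ran most like each *Stat* gene were found by Pearson's r of the log2 normalised counts (1 added) over the 6 libraries, among 51 candidates. These 6 points are 3 libraries each of 2 cell types, so r reflects both the cell type and the library, and it is given as a description. The orders of libraries named below come from the same values that picked the genes, so they add no separate support. How many candidates share an order was not counted. *Stat4* was nearest to *Tyk2* (r = 0.997) and *Ptpn11* (0.990), and *Tyk2* ranked the libraries in the same order as *Stat4* within CD8+ T cells and within NK cells. *Stat3* and *Stat5a*, the tail-to-tail neighbours, were nearest to each other (0.956) and next to *Socs6* (0.950 and 0.875), and their libraries too had the same order in both cell types, at ratios of *Stat3* to *Stat5a* reads of 2.12 to 3.13. *Stat6* was nearest to *Il6st* (0.887) and *Il6ra* (0.860), *Stat5b* to *Il6ra* (0.716) and *Il27ra* (0.710), and *Stat2* to *Il4ra* (0.743) and *Sh2b3* (0.684). The last 2 had their highest level in CD8+ T cell library 3, as *Stat2* had, at 10065 and 3988 normalised counts.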

How the data were processed

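The deposited counts are whole numbers of reads per Ensembl gene. Per the study's methods and the submitters' processing notes, the authors trimmed 50-base single-end Smart-seq2 reads (Trimmomatic 0.32), aligned them to mm10/GRCm38 (STAR 2.7.1) and counted uniquely aligned reads in exons (GenomicAlignments, R 3.2.3). Counts that rest on unique reads are low for genes with near-identical copies. Of 104 value columns, 98 were not used, among them 3 *WT* CD8+ T cell columns that could not be tied to the 2 samples.

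Counts of the 6 *Tyk2*-/- libraries, numbered as in the table, were fitted with edgeR 4.0.16 in R 4.3.3 (TMM, mean normalised count of at least 10, robust quasi-likelihood F-test, Benjamini-Hochberg over all 14062 genes, called at an adjusted p below 0.05). Fold changes are log2, NK over CD8+ T cells. The script was tested on simulated counts. Alternatives were DESeq2 1.42.0, RLE or total-count scaling, no filter and removal of each library. Single values were compared by exact permutation (scipy 1.17.1). Exon lengths came from GENCODE M21 and promoters from RefSeq GRCm38.p6. Genes named were all members, *Tyk2*, called genes of the lists, up to 2 others per receptor or target list by largest mean, and the 2 genes most like each member. The members and lists were chosen with earlier results of these data known. Since each library is a pool of animals, p-values measure the spread between pools. Bounds set the mean of a group against 3 reads per library and cover counting error only, as reads carry no molecular identifiers. One marker gene of the lists is not reported here.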

Additional observations from a re-analysis of the deposited data

How the results depend on the processing

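None of the 6 *Stat* genes passed the threshold with edgeR in any of the 6 fits that left out a library, under RLE scaling or without the filter on low counts. Among 60 alternative fold changes 56 kept direction and side of the threshold. *Stat6* passed with total counts (-1.40, adjusted p = 0.041) and with DESeq2 (-0.98, adjusted p = 0.031). Leaving out a library gave log2 ranges of -1.97 to 0.34 for *Stat2* (positive without CD8+ T cell library 3), -0.78 to 0.10 for *Stat3* (positive without CD8+ T cell library 1), 0.52 to 0.99 for *Stat4*, -0.76 to -0.15 for *Stat5a*, -0.49 to -0.21 for *Stat5b* and -1.17 to -0.72 for *Stat6*. DESeq2 called 3729 genes, 29.6% of its genes, against 1600 with edgeR, 11.4%. On the JAK-STAT list DESeq2 called 21 against 11, and the cause was not tested. Without 1 library edgeR called 476 to 1946 genes, with 476 to 485 without an NK cell library and 1669 to 1946 without a CD8+ T cell library. Why they differ was not tested. The list counts then ran from 5 to 14 (JAK-STAT), 6 to 9 (receptors) and 2 to 6 (targets). In NK cells, the mean of *Stat4* was 4273 and that of *Stat6* 1359 with total counts, and 4500 to 4712 and 1420 to 1494 without 1 library. Per kb without 1 CD8+ T cell library, *Stat4* and *Stat6* took ranks 1 to 2, *Stat3* 3 to 4, *Stat2* 3 to 6 and *Stat5a* 4 to 6. In NK cells *Stat5a* and *Stat5b* traded ranks 4 to 5, and *Stat5a* came to rank 4 and *Stat5b* to rank 5 when lengths left out shared 50-base sequences, a choice made after seeing the data.

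No paired analysis was possible because the NK and CD8+ T cell columns compared carry numbers that the labels do not tie to shared animals or samples, and the comparison of *Tyk2*-/- with *WT* cells, its alternatives and its paired form were not run. With 3 libraries per cell type and these spreads, differences of the size seen for *Stat2*, *Stat3*, *Stat5a* and *Stat5b* were not detectable.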
